A study of Mus musculus with 41 samples.

Results

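The genes described here copy DNA or make it ready to be copied in S phase of the cell cycle. They were 51 genes listed by name, and the list was drawn up with earlier results of these data known. A probe set assigned to that gene alone was found for 50 of them, and all 50 were among the 11947 genes tested. The exception, Chaf1a, is not analysed here. Each gene was represented by its brightest probe set, the one with the highest mean of log2(signal + 32) over the arrays. The values come from 41 single-colour Affymetrix arrays, 1 per RNA sample, of flow-sorted mouse B lineage cells. All samples carried wild-type Pax5 on the C57BL/6 strain and received no treatment. There were 7 arrays each for the common lymphoid progenitor (CLP) and for Hardy fractions A and B, and 5 each for fractions C, D, E and F. In the Hardy scheme, as background, A is called pre-pro-B, B pro-B, C late pro-B and large pre-B, D small pre-B, E immature B and F mature recirculating B. The labels used here do not give the age, sex or number of the mice, the tissue, the sorting gates or whether arrays came from separate animals. The p-values therefore speak only of the spread among these samples, and that spread may be technical.

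As background, replication starts when the origin recognition complex, Cdc6 and Cdt1 load the ring-shaped Mcm helicase onto DNA in G1, a step called licensing. The kinase Cdc7 with Dbf4, together with Cdc45, the GINS complex and Mcm10, then turns the helicase on, and polymerases copy both strands behind a sliding clamp. E2F transcription factors drive many of these genes as cells enter S phase. In B cell development, bursts of division alternate with resting stages in which the antigen receptor genes are rearranged, and mature recirculating B cells are mostly quiescent. In bulk RNA, fewer cells in S phase and less RNA per cell cannot be told apart.

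Promoter sequence was read from RefSeq (GRCm38.p6) because E2F sites are the best known element that these genes share. Windows of 300 bases, 250 before and 50 after an annotated start, were found for 43 of the 51 genes. The letters searched were TTTCCCGC, TTTCGCGC, TTTGCCGC and TTTGGCGC on both strands, and matches may overlap each other. A match was present for 17 of the 43 genes (39.5%), against 704 of all 27025 genes in the table (2.6%). The letters CCAAT, on both strands, were present for 28 of the 43 (65.1%) and for 11096 of all genes (41.1%). Within the last 150 bases before the start, 7 of the 43 genes held an E2F match. The following stretches are 4 of those 7, and capitals mark the E2F letters on either strand. Cdc6, Mcm6 and Mcm5 had the highest F statistics of the 7, and Orc1 is shown because its signal ran against the rest. In Mcm6 the first pair of matches overlaps. A match is a description of letters and says nothing about binding.
Cdc6, chr11:98908001-98908150, + strand: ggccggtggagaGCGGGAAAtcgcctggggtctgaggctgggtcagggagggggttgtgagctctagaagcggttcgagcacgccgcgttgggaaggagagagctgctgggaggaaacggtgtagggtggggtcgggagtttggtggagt
Mcm6, chr1:128359706-128359855, - strand: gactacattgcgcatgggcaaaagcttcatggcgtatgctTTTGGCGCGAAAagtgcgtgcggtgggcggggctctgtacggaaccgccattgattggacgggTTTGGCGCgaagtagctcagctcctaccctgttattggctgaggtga
Mcm5, chr8:75109359-75109508, + strand: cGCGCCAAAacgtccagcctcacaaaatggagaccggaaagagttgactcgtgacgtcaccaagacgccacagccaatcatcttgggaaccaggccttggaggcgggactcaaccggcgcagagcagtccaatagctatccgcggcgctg
Orc1, chr4:108579304-108579453, + strand: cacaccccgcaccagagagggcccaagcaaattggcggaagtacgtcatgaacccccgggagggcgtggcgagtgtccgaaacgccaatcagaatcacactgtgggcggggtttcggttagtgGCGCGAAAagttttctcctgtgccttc

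Several facts about the arrays touch the results below. The authors had scaled every array to the same trimmed mean, and array medians ranged from 69.1 to 153.1 signal units, lowest in B and A. Fraction A was the least uniform population. Its arrays 4, 6 and 7 correlated with the other A arrays at 0.829, 0.836 and 0.866, whereas every other array of the series correlated with its own population at 0.927 or higher. Markers of natural killer (NK) cells (6 of 7 listed) summed to 37439 to 65139 signal units in A, against 1264 to 1461 in the CLP and 108 to 1094 in B. Summed markers of plasmacytoid dendritic cells (6 of 6) were also highest in A, at 12182 to 26071. These sums were 7573 to 11576 in the CLP and 3540 to 6006 in B. By their means, Siglech, Bst2, Cd7 and Tcf4 were highest in A. Siglech averaged 4159, 1048 and 96.0 units in A, the CLP and B, and Tcf4, the brightest, 8027, 4465 and 4083. Ly6d averaged 1255 in A, against 1483 in the CLP and 2683 in E, and Ccr9 1437 in A, against 1509 in the CLP. Markers of the B lineage (9 of 10 listed) summed to 71576, 24635 and 46837 in A arrays 4, 6 and 7, and to 2886 to 8093 in the other 4 A arrays. The CLP had B lineage sums of 33719 to 46502, and B had 65109 to 96277. Vpreb1 alone reached 53963 units in A, more than the whole sum on A array 6 or 7. Ebf1 and Pax5, which define the B lineage, averaged 197 ± 173 and 122 ± 151 units in A (SD, n = 7). Their highest A values were 514 and 447. In the CLP they averaged 3692 and 1230 units, and in B 5822 and 1171. Neutrophil markers (8 of 8) summed to 51778 to 72468 in C, against 2578 to 19273 in B. The CLP, at 14070 to 50130, and A, at 16210 to 36989, also had higher medians of this sum (27829 and 27758) than B (6310), so the sum moves with B vs CLP, B vs A and C vs B. In A most of the sum was Mpo, with a mean of 18255 units in a mean sum of 27079. By the medians of single genes, Mpo alone was higher in A than in the CLP (15734.6 and 8663.3). Ngp alone was lower in A than in B (330.7 and 932). The summed neutrophil markers reached 93877 on E array 2, and 11894 to 26306 on the other E arrays. Whether these marker signals came from other cells or from the sorted cells themselves was not tested, nor was their part in the results. Gapdh signal at the 3' end over the 5' end, a ratio that is high when RNA is short, was 12.7 ± 9.92 in A, 7.52 ± 2.33 in B and 4.17 ± 0.519 in the CLP (SD, n = 7 each).

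The replication genes were high in the CLP and in B, intermediate in A, C and D, and low in E and F. Their level on an array was summarised as the median, over the 50 genes, of the log2 deviation from each gene's average population, so that 0 is an average population. This index was 0.40 ± 0.12 in the CLP and -0.0071 ± 0.174 in A (SD, n = 7 each). It was 0.66 ± 0.12 in B (SD, n = 7). Fractions C and D had 0.27 ± 0.34 and 0.11 ± 0.16, and fractions E and F had -0.70 ± 0.19 and -0.61 ± 0.19 (SD, n = 5 each). The ranges of the E and F arrays overlapped each other, and no E or F array reached the lowest array of the earlier populations. Fraction C was split: its arrays 1 and 2 stood at 0.55 and 0.68, and arrays 3, 4 and 5 at 0.20, -0.11 and 0.01. E array 2 stood at -0.38, above the other E arrays, which lay between -0.87 and -0.72.

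**Figure D1:**
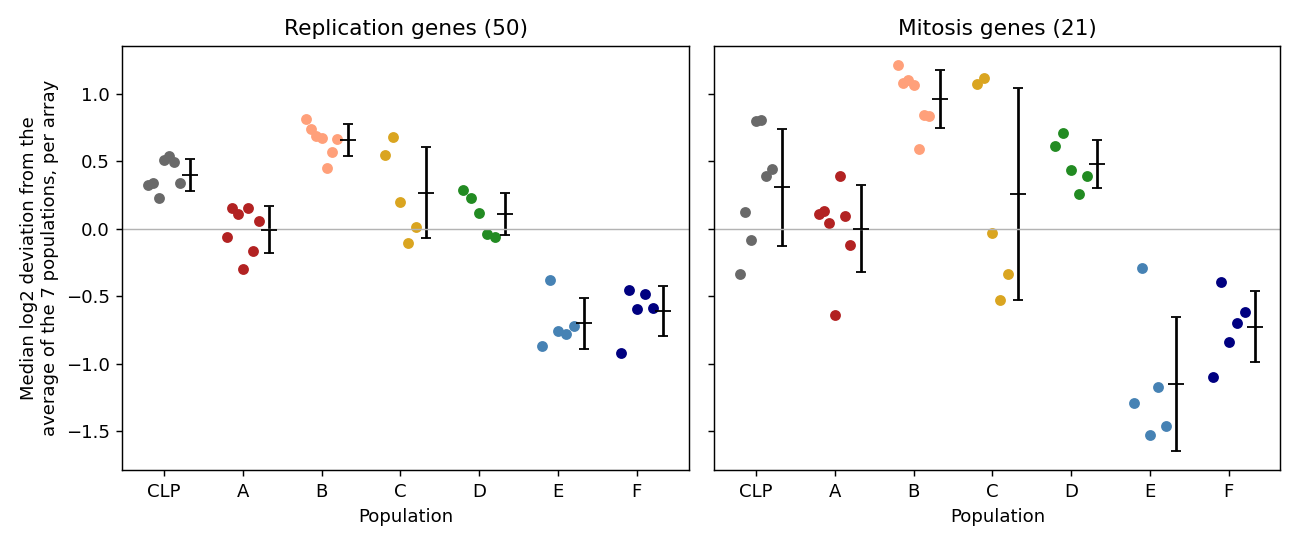
Median log2 deviation from the average population, per array (points), for the 50 replication genes (left) and 21 mitosis genes (right), with the mean and SD of each population (black). B has the highest mean and E and F the lowest means in both panels, and C arrays 1 and 2 stand above C arrays 3 to 5.

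Of the 50 genes, 49 differed among the 7 populations at a Benjamini-Hochberg adjusted p under 0.05 (limma F-test), against 73.3% of all genes tested. The exception was Gins3. B was the highest population for 29 genes, the CLP for 11, D for 5, A for 2, C for 2 and F for 1. E was the lowest for 25 genes and F for 18, followed by A for 4, B for 2 and C for 1. The distance from a gene's lowest to its highest population mean had a median of 1.59 log2 units and ran from 0.79 for Mcm4 to 2.83 for Gins2. Over the 7 population means, 32 of the 50 genes correlated with the index above 0.8, which is a description, since each gene is part of the index and all share the same arrays. The clearest departures were Orc1 (-0.85), E2f2 (0.04), Cdc45 (0.15) and Mcm4 (0.43).

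**Figure D2:**
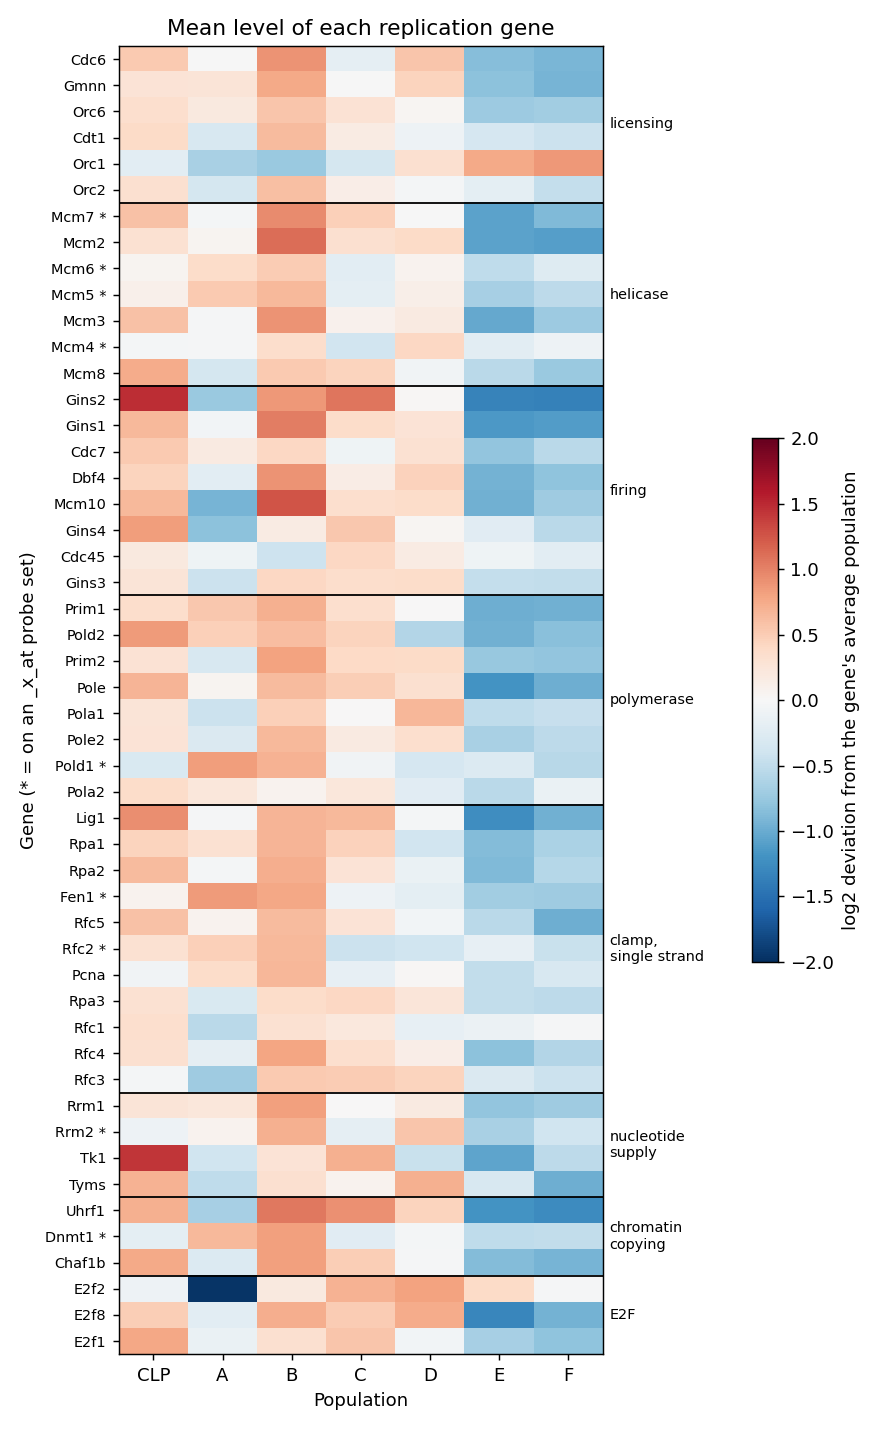
Mean log2 signal of each of the 50 genes (rows, by role and then by the size of the F statistic) in the 7 populations (columns), as the deviation from the gene's average population. Most rows are red in the CLP and B and blue in E and F. Orc1 runs the other way, and E2f2 is lowest in A, at 843 ± 336 signal units (SD, n = 7).

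In all, 8 comparisons were tested with limma over all 11947 genes, each as first minus second population. In A vs CLP, 5 replication genes rose and 23 fell, against 11.5% of all genes higher and 25.5% lower. Their median difference was -0.61, against -0.22 over all genes. In B vs A, 30 rose and 0 fell (all genes 16.8% higher and 14.5% lower), with a median of 0.73, against 0.02 over all genes. In B vs CLP, 11 rose and 2 fell (all genes 8.77% higher and 18.9% lower), with a median of 0.29, against -0.20. The 2 genes lower in B were Cdc45 and Tk1. Without A arrays 4, 6 and 7, left out after seeing the data because of their low correlations, A vs CLP held 1 rise and 15 falls and B vs A 29 rises and 0 falls. Of all genes, 13.1% were then higher and 17.4% lower in A vs CLP, and 13.3% and 17.7% in B vs A. In the fit of A and B alone B vs A held 13 rises and 0 falls (all genes 4.95% and 6.29%). The calls lost there included those of Orc2, Cdt1, Pole2, Rfc3, Rfc4, Rrm1 and Chaf1b.

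The comparisons with B also depended on how arrays were scaled, since B arrays had low medians. With each array centred on its median instead, the share of all calls that were higher was 53.8% in A vs CLP (31.1% as scaled by the authors), 72.1% in B vs A (53.8%), 75% in B vs CLP (31.7%) and 19.1% in C vs B (61.7%). The replication genes then held 6 rises and 13 falls in A vs CLP (all genes 17.3% higher and 14.9% lower) and 38 rises and 0 falls in B vs A (all genes 24.6% and 9.52%). They held 30 rises and 1 fall in B vs CLP (all genes 21.9% and 7.31%) and 0 rises and 29 falls in C vs B (all genes 4.55% and 19.3%). With quantile normalization B vs CLP held 2 rises and 2 falls (all genes 6.81% and 11.5%) and C vs B 1 rise and 6 falls (all genes 8.59% and 7.16%). The median of the 50 genes minus that of all genes was 0.71 in B vs A with the authors' scaling and 0.55 with quantile normalization. In B vs CLP it was 0.49 and 0.05, and in C vs B -0.61 and -0.25. Centring shifts all genes of an array alike, so it cannot change this value.

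In C vs B, 1 gene rose and 15 fell (all genes 14.2% higher and 8.8% lower), with a median of -0.42, against 0.19 over all genes. In D vs C, 3 rose and 5 fell (all genes 7.46% higher and 13.6% lower), shares near the background, and the median was -0.10 for the 50 genes and for all genes. Without C array 1 or 2, C vs B held 1 rise and 17 falls, and D vs C 4 rises and 2 falls. The shares of all genes without C array 1 were 12.9% higher and 8.65% lower in C vs B, and 5.71% and 10.8% in D vs C. Without C array 2 they were 13.1% and 8.65% in C vs B, and 5.88% and 11.1% in D vs C. In E vs D, 0 rose and 25 fell (all genes 3.89% higher and 4.21% lower), with a median of -0.78, against 0.01. Without E array 2 the count was also 25 (all genes 3.43% higher and 4.12% lower), with a median of -0.86. The arrays of the populations did not overlap for 35 of the 50 genes in E vs D. The same count was not made over all genes, so 35 has no background to be read against.

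In F vs E, 0 of 50 were called (limma, adjusted p of at least 0.775), against 0.259% of all genes higher and 0.209% lower. At an unadjusted p under 0.05, 1 gene was higher, Mcm6 (0.25), and it was also the 1 gene called with array weights. The fit of E and F alone called 1 other gene, E2f2 (-0.41). In F vs CLP, which spans the whole path, 1 rose and 38 fell (all genes 15.2% higher and 26.6% lower), with a median of -1.07, against -0.15. Comparisons that share a population are not independent. Side by side, 20 genes were called lower in A vs CLP and higher in B vs A, 8 were called higher in B vs A and lower in C vs B, and 23 were called lower in E vs D and in F vs CLP. Such double calls were not counted over all genes, so these counts have no background to be read against.

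**Figure D3:**
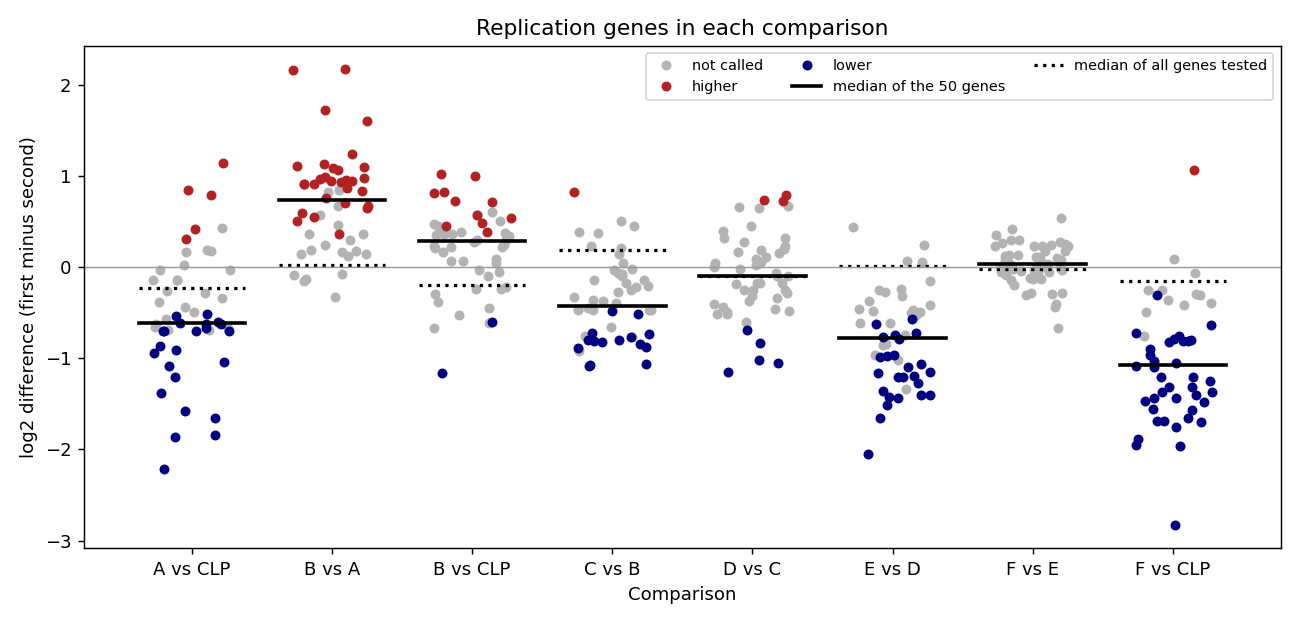
log2 difference of each replication gene (points, 50 per comparison) in 8 comparisons, first minus second population, coloured by call at an adjusted p under 0.05. Solid bars are the median of the 50 genes and dotted bars that of all genes tested: the 2 lie furthest apart in F vs CLP and E vs D and coincide in D vs C.

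Which probe set stood for a gene mattered in some of these comparisons. For 9 genes (Mcm4, Mcm5, Mcm6, Mcm7, Pold1, Rfc2, Fen1, Rrm2 and Dnmt1) the brightest probe set was of the _x_at kind, whose probes, by the maker's naming, can also match other transcripts. In A vs CLP, 5 of these 9 rose and 1 fell, whereas 0 of the other 41 rose and 22 fell. The 5 rises were those of Pold1 (1.14 ± 0.31), Dnmt1 (0.84 ± 0.19), Fen1 (0.79 ± 0.21), Mcm5 (0.42 ± 0.14) and Mcm6 (0.31 ± 0.10, SE). The brightest other probe sets were lower in A: Pold1 at -1.91, Mcm5 at -1.49, Mcm6 at -1.04 and Fen1 at -1.03, all called, and Dnmt1 at -0.29, not called. With _x_at probe sets left out, an alternative chosen after seeing the data, 1 gene rose in A vs CLP (Pcna, the sliding clamp, 0.43) and 29 fell. Of all genes, 10.6% were then higher and 26.3% lower.

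The same choice moved C vs B, in which 8 of the 9 genes on _x_at probe sets fell and 7 of the other 41 did. Without _x_at probe sets, 9 genes fell in C vs B, namely Cdc6, Gmnn, Mcm2, Mcm3, Mcm4, Mcm7, Cdc7, Pcna and Rrm1, and Cdc45 rose (all genes 14.4% higher and 7.97% lower). B vs CLP then held 6 rises and 2 falls (all genes 7.92% and 19.3%) and B vs A 35 rises and 0 falls (17.1% and 14.3%). E vs D held 0 rises and 26 falls (3.88% and 4.27%) and F vs CLP 1 rise and 42 falls (14.9% and 27%). D vs C held 1 rise and 10 falls (7.28% and 14.1%), with a median of -0.22, against -0.11 over all genes. With the brightest probe sets both medians were -0.10 there. The index kept its order at the top and the bottom: it was 0.68 ± 0.15 in B, 0.50 ± 0.15 in the CLP, -0.77 ± 0.22 in E and -0.71 ± 0.22 in F. Directions that differ between probe sets of a gene are reported here as uncertain.

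**Figure D4:**
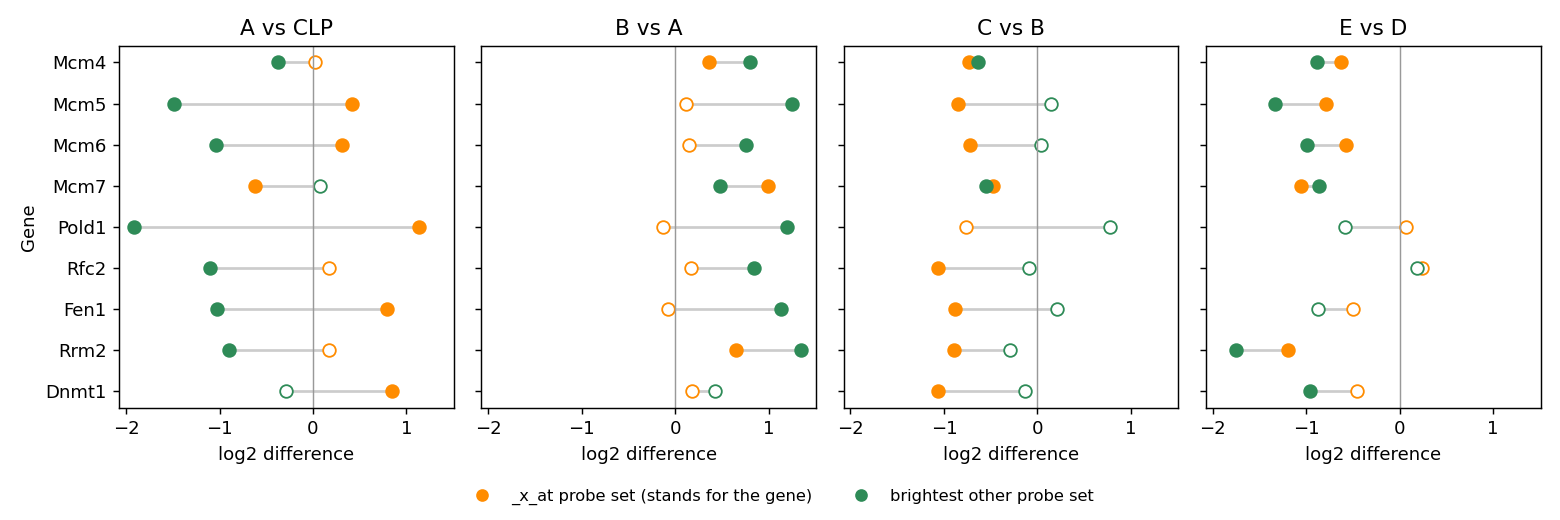
log2 difference of 9 genes on the _x_at probe set that stands for the gene (orange) and on its brightest other probe set (green), in 4 comparisons. Filled points had an adjusted p under 0.05. The colours fall on opposite sides of 0 for all 9 genes in A vs CLP, and on the same side for 8 of 9 genes in E vs D.

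Among the 6 licensing genes, 4 rose in B vs A, 2 fell in C vs B, 3 fell in E vs D and 5 fell in F vs CLP. Cdc6, which recruits Cdt1 and the helicase to origins, had signals of 2923 to 3567 (median 3126) in the CLP, 1422 to 3432 (2138) in A and 3519 to 4963 (4233) in B. It had 1748, 2400, 2090, 1573 and 2118 in C and 4236, 3650, 3432, 3462 and 2116 in D. It had 1094, 1708, 1092, 1274 and 1049 in E and 1037, 1531, 937, 1524 and 950 in F. Cdc6 was thus high in B and in D and lower in C, and every E array lay below every D array. It fell in C vs B (-1.08 ± 0.18, limma adjusted p = 2.24e-05), rose in D vs C (0.74 ± 0.20, adjusted p = 0.00561) and fell in E vs D (-1.41 ± 0.20, adjusted p = 1.32e-06).

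Gmnn encodes geminin, which binds Cdt1 and blocks a second round of licensing. Its signal was 3859 to 5212 (median 4193) in the CLP, 3408 to 5664 (4186) in A and 4232 to 7726 (6262) in B. The C arrays had 4822, 5540, 3355, 2934 and 2406 and the D arrays 6278, 5537, 4747, 4614 and 4095. The E arrays had 1970, 3029, 1700, 1806 and 2020 and the F arrays 1481, 1985, 1732, 2182 and 2234. Gmnn thus separated C arrays 1 and 2 from the other 3, and E from D without overlap (-1.27 ± 0.19, adjusted p = 4.84e-06). Cdt1, the loader that geminin blocks, fell in A vs CLP (-0.70 ± 0.24, adjusted p = 0.0209) and rose in B vs A (0.95 ± 0.24, adjusted p = 0.00246). The first call was lost without A array 6 or 7, and without A arrays 4, 6 and 7 the values were -0.18 (not called) and 0.42 (called). Orc2, a subunit of the origin recognition complex, rose in B vs A (0.96 ± 0.29, adjusted p = 0.00928), but was at 0.55 and not called without A arrays 4, 6 and 7. Another subunit, Orc6, fell in E vs D (-0.77).

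Orc1, the largest subunit of the same complex, was the licensing gene that ran the other way. Its signals were 744, 792, 997, 786 and 1064 in E and 748, 974, 1203, 935 and 857 in F, against 288 to 804 (median 433) in the CLP. It was called higher in F vs CLP (1.07 ± 0.42, adjusted p = 0.0373), with overlapping arrays. On its other probe set Orc1 was lower in F vs CLP (-1.67 ± 0.34, adjusted p = 0.000107 over probe sets), and the mean of both gave -0.30. The call on the brighter probe set was lost without CLP array 3, 4 or 7 or F array 2, 3, 4 or 5. The direction of Orc1 is therefore unsettled in these data.

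Of the 7 helicase genes, 5 rose in B vs A, and 6 fell in each of C vs B, E vs D and F vs CLP. Mcm2 had signals of 1490 to 2472 (median 1956) in the CLP, 1062 to 2588 (1699) in A and 2378 to 4821 (2985) in B. Its arrays had 2118, 2598, 2057, 1598 and 1646 in C, 2764, 2353, 2222, 1817 and 1386 in D, 445, 1050, 785, 800 and 731 in E and 629, 830, 802, 721 and 627 in F. All E and F arrays lay below all arrays of the 5 earlier populations. Mcm2 rose in B vs A (1.07 ± 0.20, adjusted p = 5.45e-05, and 0.69, called, without A arrays 4, 6 and 7) and fell in E vs D (-1.44 ± 0.24, adjusted p = 2.20e-05).

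Mcm7, another of the 6 ring subunits, had signals of 10642 to 11997 (median 11584) in the CLP, 3373 to 12457 (8490) in A and 11508 to 19760 (14242) in B. It had 11788, 11192, 10779, 9321 and 9351 in C and 7859, 9254, 7343, 6614 and 6574 in D. It had 3415, 4477, 3262, 3624 and 3218 in E and 3236, 4786, 3862, 4506 and 4067 in F. No E array reached a D array, and Mcm7 fell in F vs CLP (-1.47 ± 0.18, adjusted p = 7.29e-09). Mcm3, also a ring subunit, rose in B vs A (0.91) and fell in C vs B (-0.80 ± 0.25, adjusted p = 0.0154) and E vs D (-1.20 ± 0.27, adjusted p = 0.00158). The C vs B difference of Mcm3 was -0.44 and not called with quantile normalization, and -0.44 and called with the mean of its probe sets. Mcm8, a related helicase known from recombination repair, fell in A vs CLP (-1.09 ± 0.27, adjusted p = 0.00179) and in F vs CLP (-1.48 ± 0.30, adjusted p = 0.0001). Mcm4 rose in D vs C on its _x_at probe set (0.79 ± 0.14, adjusted p = 9.21e-05) but had a difference of -0.11 on its brightest other one.

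Among the 8 genes that fire origins, 4 fell in A vs CLP, 5 rose in B vs A, 4 fell in E vs D and 6 fell in F vs CLP. Gins1 and Gins2 encode subunits of the GINS complex, which joins Cdc45 and the Mcm ring into the active helicase. Gins2 had signals of 2019 to 2567 (median 2486) in the CLP, 97.0 to 1079 (667) in A and 1018 to 2139 (1734) in B. It had 2475, 2458, 1369, 1486 and 1536 in C and 998, 1047, 806, 713 and 739 in D. It had 502, 538, 291, 217 and 166 in E and 200, 449, 262, 421 and 271 in F. The A arrays did not overlap the CLP arrays (-2.22 ± 0.31, adjusted p = 3.95e-07), nor did the F arrays (-2.83 ± 0.34, adjusted p = 7.04e-09). Gins2 also fell in D vs C (-1.06 ± 0.37, adjusted p = 0.0355), a call lost without C array 1 or 2 or D array 3, 4 or 5, with a pseudocount of 1 and with the mean of its probe sets. Without A arrays 4, 6 and 7 its A vs CLP difference was -1.41, called.

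Gins1 had signals of 2481 to 3449 (median 3048) in the CLP, 576 to 3156 (2308) in A and 3056 to 5082 (4162) in B. The arrays had 2984, 4065, 2341, 1711 and 2127 in C, 2553, 2948, 2398, 1748 and 2328 in D, 803, 1348, 758, 715 and 800 in E and 593, 1389, 836, 804 and 974 in F. Gins1 followed the index most closely of all genes over the 7 population means (r = 0.997) and fell in E vs D (-1.42 ± 0.28, adjusted p = 0.000279). Gins4 fell in A vs CLP (-1.65 ± 0.30, adjusted p = 3.21e-05, and -0.85, called, without A arrays 4, 6 and 7). Mcm10, which helps activate the helicase, rose in B vs A (2.18 ± 0.43, adjusted p = 9.76e-05) without overlap, although 2 of its 7 A arrays lay below their array's median signal. Its rise was 1.46 with the mean of its probe sets and 1.21 without A arrays 4, 6 and 7, both called. Dbf4, the activator of the kinase Cdc7, fell in E vs D (-1.41 ± 0.33, adjusted p = 0.00287).

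Cdc45, the helicase cofactor, differed between its 2 probe sets. On the brighter one it had signals of 170 to 251 (median 229) in B, against 255 to 518 (373) in the CLP, and was lower in B without overlap (-0.61 ± 0.21, adjusted p = 0.0283). That call was lost without B array 6 or CLP array 1 or 2. In C its signals were 389, 429, 523, 428 and 342, all above the B arrays (0.83 ± 0.23, adjusted p = 0.00745). Cdc45 was the 1 gene that rose in C vs B. Both calls were lost with quantile normalization (-0.25 in B vs CLP and 0.46 in C vs B) and with median centring (-0.18 and 0.41). With the mean of its probe sets both were kept, and Cdc45 also fell in A vs CLP (-0.51, adjusted p = 0.0335) and in E vs D (-0.84, adjusted p = 0.0106), which the brighter probe set did not call (-0.28 and -0.25).

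Of the 8 polymerase genes, 3 rose in B vs A, 0 changed in C vs B, 5 fell in E vs D and 6 fell in F vs CLP. Prim1, the catalytic subunit of primase, which lays down the RNA primer, had signals of 2958 to 4261 (median 4053) in the CLP, 2624 to 11826 (3892) in A and 2929 to 7012 (4921) in B. It had 4285, 4374, 3418, 3790 and 3036 in C and 3554, 2903, 2777, 2760 and 2855 in D. It had 1306, 2103, 1251, 1293 and 1631 in E and 1176, 2200, 1904, 1401 and 1104 in F. The highest A value belonged to array 7, and E and D did not overlap. Prim2, the other primase subunit, rose in B vs A (1.13 ± 0.25, adjusted p = 0.000442); its fall in A vs CLP (-0.62 ± 0.25, adjusted p = 0.043) was lost without any of 10 single arrays, 4 of A and 6 of the CLP.

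Pold2, an accessory subunit of polymerase delta, was among the dimmest of the 50 genes. It had signals of 378 to 646 (median 552) in the CLP, 152 to 1276 (351) in A and 213 to 591 (466) in B. It had 681, 580, 251, 240 and 340 in C, 133, 229, 135, 185 and 197 in D, 115, 165, 107, 135 and 115 in E and 62.9, 228, 115, 115 and 246 in F. Of the E arrays 2 and of the F arrays 3 lay below their array's median, so the fold there depends on the 32 added before the log. Pold2 fell in F vs CLP (-1.69 ± 0.32, adjusted p = 3.45e-05). It also fell in D vs C (-1.02 ± 0.35, adjusted p = 0.0292), a call lost without C array 1 or 2 or D array 1 or 3 and with median centring. Pole, the catalytic subunit of the leading-strand polymerase epsilon, fell in E vs D (-1.52 ± 0.41, adjusted p = 0.0114) with E signals of 325, 403, 378, 242 and 396, against 1413, 1081, 1070, 1100 and 684 in D. Pola1, the catalytic subunit of polymerase alpha, was highest in D and fell in E vs D (-1.16 ± 0.27, adjusted p = 0.00292), and Pole2 rose in B vs A (0.94 ± 0.25, adjusted p = 0.00312). The call of Pole2 was lost with the mean of its probe sets (0.41) and without A arrays 4, 6 and 7 (0.48).

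Of the 11 clamp, single-strand and ligation genes, 7 rose in B vs A, 3 fell in E vs D, and 8 fell in F vs CLP. Lig1, the ligase that joins Okazaki fragments, had signals of 6213 to 7606 (median 6962) in the CLP, 2485 to 5433 (3765) in A and 4016 to 7878 (5666) in B. It had 7213, 7248, 5416, 4138 and 5032 in C and 3852, 4395, 3356, 2748 and 3390 in D. It had 1513, 2072, 1128, 1143 and 1902 in E and 1206, 2069, 1912, 1809 and 2401 in F. Lig1 was not called in C vs B. It fell in D vs C (-0.69 ± 0.21, adjusted p = 0.0127), in E vs D (-1.20 ± 0.21, adjusted p = 4.15e-05) and in F vs CLP (-1.88 ± 0.19, adjusted p = 8.09e-11).

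Rpa1 encodes the large subunit of the protein that coats single-stranded DNA. Its signals were 7261 to 9319 (median 8570) in the CLP, 4252 to 12421 (7590) in A and 7460 to 13708 (8299) in B. The C arrays had 10019, 9572, 7390, 7713 and 6742 and the D arrays 5186, 5292, 4668, 3735 and 4170. The E arrays had 3147, 3669, 3276, 3264 and 2901 and the F arrays 3544, 4374, 4717, 3550 and 3131. The largest step of Rpa1 was at D, where no array reached the lowest C array (-0.84 ± 0.19, adjusted p = 0.00111). Rpa2, the middle subunit, fell in E vs D (-0.75 ± 0.19, adjusted p = 0.00578), a call lost with the mean of its probe sets (-0.58). Rfc3 and Rfc4, subunits of the clamp loader, rose in B vs A (1.24 ± 0.35, adjusted p = 0.00576, and 0.97 ± 0.32, adjusted p = 0.0194), and the call of Rfc4 was lost without A array 4. Rfc5 fell in F vs CLP (-1.56 ± 0.23, adjusted p = 3.50e-07).

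Pcna, the sliding clamp itself, had signals of 16331 to 28718 (median 17699) in B, all above the CLP arrays at 11110 to 13010 (11704). It was called higher in B vs CLP (0.72 ± 0.18, adjusted p = 0.00153), but the difference was -0.0070 after quantile normalization. Pcna had 8168, 10619, 8049, 8536 and 9146 in E, against 14420, 12032, 12170, 12026 and 13337 in D. These arrays did not overlap, and the gene was not called (-0.53), whereas with quantile normalization it was (-0.59, adjusted p = 2.45e-05).

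Of the 4 genes of nucleotide supply, 2 rose in B vs A, 2 fell in E vs D and 3 fell in F vs CLP. Rrm1 and Rrm2 encode the large and small subunits of ribonucleotide reductase, which makes deoxyribonucleotides. Rrm1 had signals of 8729 to 10598 (median 9335) in the CLP, 5046 to 14253 (9955) in A and 13022 to 17836 (13568) in B. It had 10228, 10106, 7739, 6080 and 7049 in C and 10758, 9292, 9193, 8831 and 7497 in D. It had 4920, 6399, 3904, 3632 and 4763 in E and 3920, 5566, 4506, 5741 and 4924 in F. On these signals every B array lay above every CLP and every C array, and Rrm1 fell in E vs D (-0.96 ± 0.18, adjusted p = 0.000111). It was called higher in B vs CLP (0.57) and lower in C vs B (-0.81), but with quantile normalization these differences were -0.02 and -0.21, neither called, and with the mean of its probe sets 0.25 and -0.49, neither called.

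Rrm2 had signals of 8161 to 11466 (median 10021) in the CLP, 9309 to 14232 (10208) in A and 14524 to 24474 (15828) in B. The C arrays had 10120, 9789, 10238, 8960 and 8361 and the D arrays 17846, 15388, 15194, 15759 and 14338. The E arrays had 5824, 10405, 6108, 6827 and 5914 and the F arrays 5961, 9634, 8667, 8235 and 8303. Rrm2 fell in C vs B (-0.89 ± 0.15, adjusted p = 1.43e-05), rose in D vs C (0.72 ± 0.16, adjusted p = 0.000766) and fell in E vs D (-1.19 ± 0.16, adjusted p = 3.91e-07), with no overlap in any of these comparisons. On the brightest other probe set the first pair of differences was -0.29 and 0.25, neither called, and the third was -1.75, called.

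Tk1, the thymidine kinase of the salvage pathway, was highest in the CLP at 1047 to 1531 (median 1315). It had 142 to 594 (364) in A and 336 to 1059 (553) in B. It fell in A vs CLP (-1.84 ± 0.29, adjusted p = 2.83e-06) and was also lower in B vs CLP (-1.17 ± 0.29, adjusted p = 0.00195, and -0.74, called, with median centring). In C it had 1377 and 1593 on arrays 1 and 2 and 562, 322 and 684 on arrays 3, 4 and 5, whereas D had 373, 478, 251, 298 and 295. Its fall in D vs C (-1.15 ± 0.34, adjusted p = 0.012) was lost without C array 1 or 2. Tyms, thymidylate synthase, fell in A vs CLP (-1.21 ± 0.34, adjusted p = 0.0046) and in F vs CLP (-1.68 ± 0.37, adjusted p = 0.000298), at signals below the array median on 2 of 7 A arrays and 2 of 5 F arrays. The first call was lost without A arrays 4, 6 and 7 (-0.94), and a pseudocount 4 times larger gave -1.12 in F vs CLP, called.

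The 3 tested genes of chromatin copying keep DNA methylation and nucleosomes in step with the fork. Uhrf1, which recognises hemimethylated DNA and recruits the methyltransferase Dnmt1, had the highest F statistic of all 50 genes. Its signals were 5944 to 7804 (median 7408) in the CLP, 1572 to 3915 (3122) in A and 7912 to 11564 (8647) in B. It had 8602, 8453, 8621, 8516 and 6816 in C and 7036, 6964, 6641, 5187 and 4307 in D. It had 1644, 2547, 1849, 1928 and 1492 in E and 1136, 2501, 1544, 1862 and 2290 in F. Uhrf1 was low in A, E and F and high elsewhere, with no A array reaching a CLP or B array and no E array reaching a D array. It fell in A vs CLP (-1.38 ± 0.17, adjusted p = 2.24e-08), rose in B vs A (1.73 ± 0.17, adjusted p = 3.54e-11) and fell in E vs D (-1.65 ± 0.20, adjusted p = 5.64e-08).

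Dnmt1 had signals of 7500 to 9517 (median 8226) in the CLP, 9780 to 26648 (13513) in A and 10859 to 26746 (18284) in B on its _x_at probe set. It had 10333, 8820, 7408, 9087 and 5851 in C, 10391, 8991, 9723, 8848 and 8587 in D, 5670, 8192, 6678, 6223 and 7243 in E and 5854, 7354, 6822, 7564 and 6396 in F. On this probe set Dnmt1 rose in B vs CLP (1.02 ± 0.19, adjusted p = 4.45e-05) and fell in C vs B (-1.06 ± 0.20, adjusted p = 0.00013). With quantile normalization the values were 0.43 and -0.44, both called. The brightest other probe set gave 0.14 and -0.13, neither called, and called a fall in E vs D (-0.96). Chaf1b, a subunit of the chromatin assembly factor that loads new histones, rose in B vs A (1.10 ± 0.33, adjusted p = 0.00965) and fell in F vs CLP (-1.68 ± 0.36, adjusted p = 0.000233), and with the mean of its probe sets these were 0.59 and -0.64, both called.

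The 3 E2F genes differed from one another. E2f8, a repressor of the E2F family, had signals of 2300 to 3853 (median 3216) in the CLP, 908 to 2860 (2101) in A and 2764 to 4797 (4000) in B. It had 3984, 4302, 3633, 2220 and 2302 in C and 4849, 4244, 3838, 3418 and 2693 in D. It had 646, 1675, 936, 902 and 567 in E and 695, 1480, 1298, 1113 and 1244 in F. E2f8 had the largest difference of any replication gene in E vs D (-2.05 ± 0.27, adjusted p = 2.73e-07), and no E array reached a D array. E2f1, an activator, was highest in the CLP and fell in A vs CLP (-0.91 ± 0.22, adjusted p = 0.000897) and F vs CLP (-1.57 ± 0.24, adjusted p = 7.43e-07). With the mean of its 3 probe sets these were -0.31 (adjusted p = 0.148) and -0.39 (adjusted p = 0.0934), neither called.

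E2f2, another activator, had signals of 1921 to 3560 (median 2885) in the CLP, 198 to 1275 (797) in A and 2434 to 6344 (3148) in B. It had 5318, 5146, 4430, 4814 and 5160 in C and 5296, 6176, 4784, 5118 and 5558 in D. It had 4215, 4859, 3637, 3636 and 3800 in E and 2562, 3636, 2832, 2999 and 3131 in F. The A arrays lay below all others, while E and F stayed in the range of the CLP and B. E2f2 fell in A vs CLP (-1.86 ± 0.22, adjusted p = 1.42e-08) and rose in B vs A (2.16 ± 0.22, adjusted p = 1.57e-10), and it was not called in E vs D or F vs CLP. The NK marker sums given above are highest in A, where E2f2 is lowest, and their part in this was not tested.

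**Figure D5:**
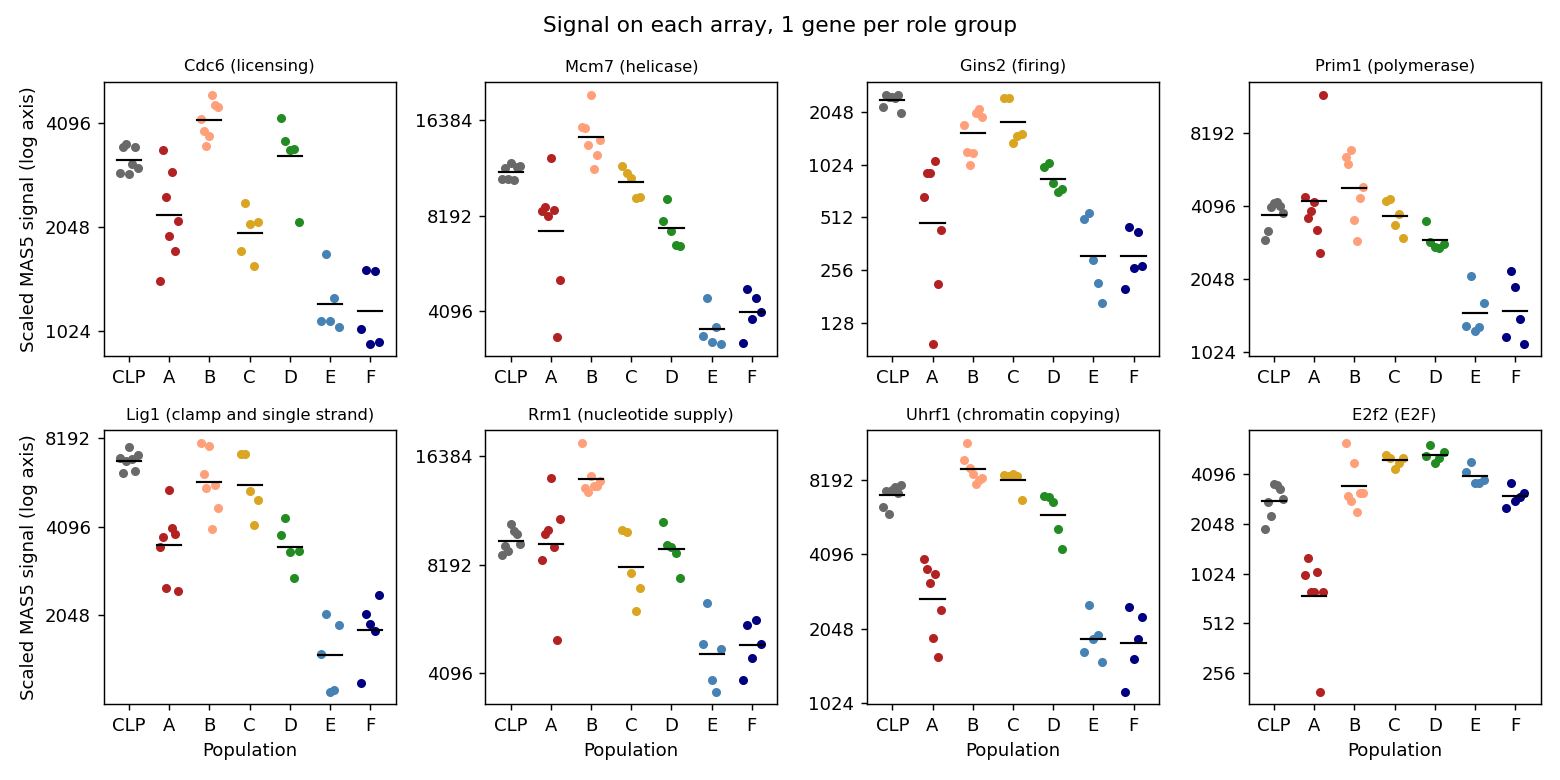
Scaled MAS5 signal on each array (log axis) for the gene with the highest F statistic in each of the 8 role groups, by population. Bars are means on the log scale. Except for E2f2, E and F arrays are the lowest or share the lowest level with A, and Uhrf1, Gins2, Lig1 and E2f2 are lower in A than in the CLP.

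Further genes of the replication machinery were counted in the same way. Of 73 further tested genes of licensing, forks, nucleotide pools, histones and E2F regulation, 42 rose and 3 fell in B vs A. The shares of all genes there were 16.8% higher and 14.5% lower. In E vs D 1 rose and 26 fell (all genes 3.89% and 4.21%), and in F vs CLP 7 rose and 45 fell (15.2% and 26.6%). In E vs D the largest falls were those of Esco2 (-2.13 ± 0.38), the cohesin acetyltransferase, Clspn (-1.95 ± 0.29), the checkpoint adaptor claspin, and Top2a (-1.73 ± 0.26), a topoisomerase. Samhd1, which breaks down deoxyribonucleotides, was the 1 of these genes that rose in E vs D (0.91 ± 0.23, adjusted p = 0.00721). Samhd1 also rose in A vs CLP (1.23), D vs C (1.00) and F vs CLP (2.11 ± 0.22, adjusted p = 1.28e-10) and fell in B vs A (-1.56), against the direction of most replication genes in each of these. In D vs C that majority was slight, with 28 of the 50 differences negative and 22 positive. In C vs B, 3 rose and 20 fell (all genes 14.2% and 8.8%), with Mthfd1, a folate enzyme, at -2.08 ± 0.28. In A vs CLP 6 rose and 36 fell (all genes 11.5% and 25.5%), and in B vs CLP 14 rose and 6 fell (8.77% and 18.9%). In D vs C 8 rose and 11 fell, or 11% and 15.1%, near the 7.46% and 13.6% of all genes. In F vs E 0 changed (1 at an unadjusted p under 0.05).

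Mitosis genes, which act after replication, gave a similar order with 1 difference at D. Of 21 tested, 17 rose in B vs A, 10 fell in C vs B, 18 fell in E vs D and 17 fell in F vs CLP, with no call in the other direction in any of these. Of all genes, 16.8% were higher in B vs A, and 8.8%, 4.21% and 26.6% were lower in C vs B, E vs D and F vs CLP. In A vs CLP 3 rose and 6 fell, or 14.3% and 28.6%, near the 11.5% and 25.5% of all genes. In B vs CLP 11 rose and 0 fell (all genes 8.77% and 18.9%), and in F vs E 0 changed (2 at an unadjusted p under 0.05). In D vs C 6 rose and 0 fell, among them Kif23 (1.66 ± 0.33), a motor of cell division, and Nusap1 (1.04 ± 0.32), a spindle protein, whereas 3 replication genes rose and 5 fell there. Of all genes, 7.46% were higher and 13.6% lower in D vs C, and the difference between the lists was not tested. In E vs D the mitosis genes had a median of -1.71, with Bub1, a spindle checkpoint kinase, at -2.10 ± 0.28. The mitosis index on C arrays 1 and 2 was 1.07 and 1.12, and on C arrays 3, 4 and 5 it was -0.03, -0.53 and -0.34, so both indices split the C arrays the same way. All D arrays, at 0.26 to 0.71, lay below C arrays 1 and 2 and above C arrays 3 to 5. The D vs C count of mitosis genes without single C arrays or without _x_at probe sets is not given here. On E array 2 the mitosis index was -0.29, against -1.53 to -1.17 on the other E arrays.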

How the data were processed

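RNA of 7 sorted populations was measured on 41 Affymetrix arrays. Per the labels' protocols, RNA was extracted with Arcturus PicoPure and amplified with a NuGEN Ovation Pico kit. The intensity values deposited by the authors are linear MAS5 signals (tool name from the submitters' processing notes). Trimmed by 2% at each end, their mean was 500 on every array. The genome build and the MAS5 version are not given in the sources used here.

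Of 45101 probe sets, 64 were controls, 34945 had 1 gene in the platform annotation, 932 had several and 9211 were not listed. For each of 18193 genes the brightest probe set by mean log2(signal + 32) was kept, a scale that understates changes of low signals. Genes had to reach the array median on 5 or more arrays, which left 11947 for the tests. No further normalization was applied. Detection calls were not used. Of the 50 replication genes, 38 had several probe sets.

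All arrays were fitted together with limma 3.58.1 in R 4.3.3 (7 population means, eBayes with trend and robust, statmod 1.5.0, data.table package 1.17.8), and p-values were Benjamini-Hochberg adjusted over 11947 genes with a threshold of 0.05. Differences are first minus second ± SE. Figures were drawn with Python 3.11.15 and matplotlib 3.10.9. The number of arrays limits the precision.

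Members, gene lists and role groups were chosen with earlier results of these data known. Named genes are the 2 with the highest F statistic in each role group, up to 2 called in each direction per role group and comparison, all called against the majority, and up to 3 called in each direction of the other lists. A few genes were added after their values were seen (Pcna, Orc6, the genes on _x_at probe sets). No arrays were identical (highest correlation 0.983). Replicate numbers did not pair the arrays: same-numbered arrays of different populations correlated in their deviations at -0.25 to 0.22 (median 0.0056, 111 pairs). Alternatives were the pseudocount, the low-signal filter, averaged probe sets, centring on medians, quantile normalization, array weights, a fit of 2 populations alone, the replicate block, each array left out, and, added after seeing the data, no A arrays 4, 6 and 7 and no _x_at probe sets.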

Additional observations from a re-analysis of the deposited data

Results flagged for a closer look

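Each population's lowest and highest array was set against its neighbours for the 16 genes given array by array and for the index, in 119 tests, and 9 stood apart from the rest of their population by Dixon's test, where chance gives about 1 in 20. In A, Prim1 was high on array 7 at 11830 (next 4448) and E2f2 was low on array 6 at 197.5 (next 788.5); both arrays are among the 3 that correlated least with their population. In B, Gmnn was low on array 5 at 4232 (next 5961), Pold2 was low on array 4 at 213.4 (next 447.2), and Rrm1 was high on array 1 at 17840 (next 14440). In C, Uhrf1 was low on array 5 at 6816 (next 8453), and in D, Prim1 was high on array 1 at 3554 (next 2903). In E, array 2 was high for Gins1 at 1348 (next 802.9) and for Rrm2 at 10400 (next 6827), and this array also held the neutrophil marker sum of 93877.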

How the results depend on the processing

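The main counts of replication genes called were 28 in A vs CLP, 30 in B vs A, 13 in B vs CLP, 16 in C vs B, 8 in D vs C, 25 in E vs D, 0 in F vs E and 39 in F vs CLP. Leaving out single arrays gave 25 to 31, 29 to 33, 12 to 15, 14 to 18, 6 to 9, 23 to 25, 0 to 0 and 36 to 39 in the same order. Quantile normalization gave 4 in B vs CLP and 7 in C vs B, and median centring gave 31 and 29. Averaging probe sets gave 10 in C vs B (all genes 19.5% higher and 5.38% lower), and leaving out _x_at probe sets gave 8 in B vs CLP and 10 in C vs B. A fit of the 2 populations alone gave 14 in A vs CLP (all genes 7.31% higher and 12.9% lower), 13 in B vs A (4.95% and 6.29%) and 22 in B vs CLP (11.1% and 22.6%). It gave 18 in D vs C (17.2% and 26.5%), 40 in E vs D (12.8% and 12.3%) and 1 in F vs E (2.39% and 2.4%). Array weights gave 25 in B vs CLP (all genes 15% higher and 27.8% lower), 30 in C vs B (22.8% and 15.8%) and 21 in D vs C (18.5% and 27.6%). They gave 40 in E vs D (13.2% and 13.2%) and 1 in F vs E (1.74% and 2.17%). The 21 in D vs C were 9 rises and 12 falls, again near the shares of all genes. A vs CLP held 16 without A arrays 4, 6 and 7 (all genes 13.1% and 17.4%). The shares of all genes called thus changed along with the counts. The cause of these changes was not tested. Counts in F vs CLP and the count of 49 differing among populations stayed within 1.5 times under every alternative run.

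Reversed in A vs CLP were Fen1 (-0.0079), Mcm5 (-0.19) and Mcm6 (-0.46) with quantile normalization, Fen1 (-0.12), Mcm5 (-0.48), Mcm6 (-0.016) and Pold1 (-0.39) with the mean of probe sets, and Dnmt1 (-0.29), Fen1 (-1.03), Mcm5 (-1.49), Mcm6 (-1.04), Pold1 (-1.91) and Mcm7 (0.079) without _x_at probe sets. In B vs CLP these were Pcna (-0.0070), Mcm5 (-0.028) and Rrm1 (-0.024) with quantile normalization, and Mcm5 (-0.23) and Pold1 (-0.72) without _x_at probe sets. Without _x_at probe sets Fen1 (0.21) and Mcm5 (0.14) in C vs B and Mcm4 (-0.11) in D vs C also reversed, and the mean of probe sets reversed Orc1 in F vs CLP (-0.30). Over the named genes, 1004 values kept direction and call, 85 kept direction only and 22 reversed. With the replicate block the counts were 28, 30, 13, 17, 9, 25, 0 and 37 in the order above. The arrays share only a number: 9 of 41 correlated best with their own number.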
